A study of Mus musculus with 12 samples.

Results

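The matrix metalloproteinases (Mmp), the secreted Adamts proteases and their tissue inhibitors (Timp) were followed across 4 mouse adipose depots. Members were the rows of the count table whose gene symbol is Mmp, Adamts or Timp followed by a number and at most 1 letter. There were 46 of them among 23420 genes, namely 23 Mmp, 19 Adamts and 4 Timp genes. Brown fat came from an interscapular (iBAT) and a supraclavicular (scBAT) depot. White fat came from the inguinal pad under the skin (iWAT) and the epididymal pad in the abdomen (eWAT). Each depot had 3 RNA sequencing libraries, all from untreated male C57BL/6 mice aged 8 weeks and housed at ambient temperature. The labels do not say whether replicates were separate animals, so p-values measure the spread between these samples, which may be technical.

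Matrix metalloproteinases are zinc-dependent proteases that cut collagens, gelatin, elastin and other matrix proteins, and are made as inactive precursors. Adamts proteases carry thrombospondin-type repeats and cut proteoglycans, procollagens and other matrix glycoproteins. The Timp proteins bind the active sites of these enzymes and block them. In fat, these enzymes remodel the collagen network around adipocytes, and mice that lack Mmp14 form small, abnormal white fat pads.

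Most members with enough reads to test were lower in brown than in white fat. In the edgeR quasi-likelihood test on all 12 libraries, 27 members were lower in brown fat (the mean of both depots) and 3 were higher, out of 37 tested, at a Benjamini-Hochberg adjusted p under 0.05. Over all 14898 tested genes 69.4% were called in this contrast, 38.1% as lower and 31.3% as higher. The median log2 difference of the 37 members was -1.64, against -0.11 for all tested genes. Markers of other cells moved with this contrast: of 11 adipose progenitor markers 7 were lower in brown fat and 2 higher, with summed levels of 662 to 878 CPM in brown and 1116 to 1786 CPM in white libraries, and all 16 skeletal muscle markers were higher, with 522 to 6431 CPM in brown and 83.8 to 289 CPM in white libraries. Their part in the members' differences was not tested. The libraries of the brown and the white depots did not overlap for 14 of the lower members, as for 21.9% of all tested genes, and for all 3 of the higher ones, as for 23.3%. In single pairs of a brown and a white depot, 23 members were called for iBAT and iWAT (63% of all genes), 23 for iBAT and eWAT (53.7%), 22 for scBAT and iWAT (61.6%) and 25 for scBAT and eWAT (51.9%). Within brown fat 1 member was called (0.329% of all genes), and within white fat 17 were (28.7%). In bulk tissue, fewer cells of a type and less RNA per cell cannot be told apart.

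Every member is accounted for as follows. The filter on low counts kept genes at or above 0.481 CPM (a gene's reads scaled to a common library total) in at least 3 libraries, and 9 members did not pass it. Mmp1a and Mmp1b had no count in any library, and Mmp20, Mmp10, Mmp21, Mmp24, Mmp7, Adamts13 and Mmp8 had 1, 5, 14, 28, 69, 164 and 202 counts in all. Of the 37 that passed, 6 did so only through white libraries, namely Mmp12, Mmp16, Adamts8, Adamts17, Adamts18 and Adamts19, and Mmp13 did so only through brown ones. Such a member had to differ between the groups, and the counts of called members are therefore a description. Adamts18 and Adamts19 passed through the 3 eWAT libraries alone. Their differences between eWAT and the other depots, and the p-values of these, are therefore a description too.

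Total counts ran from 17159401 to 29262554 per library. The depot labels matched their adipocyte markers: 8 brown adipocyte markers summed to between 4122 and 5417 CPM in the brown depots, and to between 94.0 and 403 CPM in the white ones. The iWAT libraries differed among themselves, with a biological coefficient of variation of 42.9% against 12.1% in iBAT, 15.7% in scBAT and 17.6% in eWAT. For 10 B cell markers the summed CPM of iWAT 1, 2 and 3 was 1769, 101 and 2431, and no library outside iWAT exceeded 47.5 CPM. That of 11 T cell markers was 1046, 66.4 and 1620 CPM in iWAT and at most 18.4 elsewhere. A fit without iWAT 1 and 3 gave a median log2 difference of -1.58 for the members between brown and white fat (-0.03 for all genes). This fit is given below beside the named members of that contrast whose call it changed. That fit leaves iWAT 2 as the lone iWAT library, which is assumed to vary like the other depots.

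**Figure D1:**
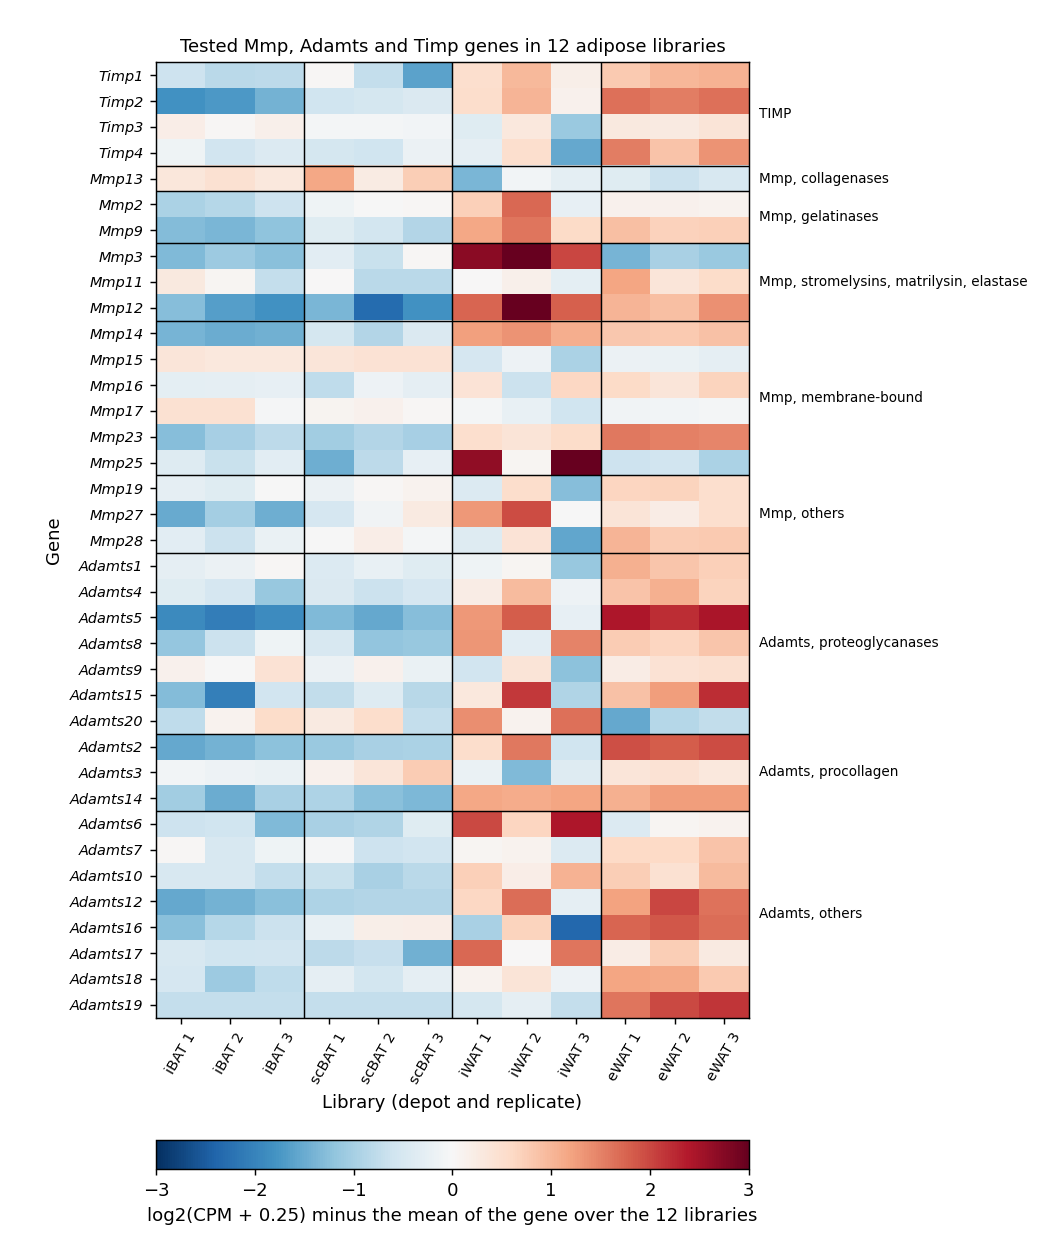
Level of each of the 37 tested members in each library, as log2(CPM + 0.25) minus the mean of that gene over the 12 libraries, with genes ordered by role and libraries by depot; colours are limited at 3 log2 units on either side. The 6 brown libraries on the left are below the mean (blue) for most members, and the rows of Mmp25, Adamts6, Adamts17 and Adamts20 are highest (red) in iWAT 1 and 3, whereas Mmp2, Mmp3 and Mmp12 are highest in iWAT 2.

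An inhibitor was the most abundant member in each depot. In CPM per kilobase of exon (RPKM), Timp3 led with a mean of 71.4 in iBAT and 62.7 in scBAT, and Timp2 with 68.7 in iWAT and 139 in eWAT. The most abundant protease was Mmp19 in iBAT (10.9 RPKM), Mmp2 in scBAT and iWAT (17.2 and 34.2) and Adamts5 in eWAT (35.0). Timp4, at 17.1, 16.5, 19.1 and 53.4 RPKM from iBAT to eWAT, was below Mmp2 in scBAT and iWAT, and Timp1 averaged 1.48 RPKM over the depots. Timp3 made up 68.9% of the summed Timp level in iBAT and 56.3% in scBAT, whereas Timp2 made up 47.8% in iWAT and 50.3% in eWAT. Summed over the 4 genes, the level was 109, 95.5 and 107 RPKM in iBAT, 109, 109 and 115 in scBAT, 136, 207 and 88.5 in iWAT. It was 288, 254 and 286 RPKM in eWAT. The sum was highest in the eWAT libraries, and iWAT overlapped with both brown depots.

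Timp2, which inhibits metalloproteinases and at the cell surface also helps Mmp14 to activate the precursor of Mmp2, followed a graded order of depots. It stood at 50.2, 53.6 and 66.3 CPM in iBAT, 115, 122 and 130 in scBAT, 255, 355 and 192 in iWAT, and 552, 515 and 554 in eWAT. No depot overlapped with another. The log2 difference between brown and white fat was -2.19 (SE 0.14, adjusted p = 4.44e-07), and eWAT was higher than each other depot. scBAT was 1.11 log2 units above iBAT (SE 0.20, adjusted p = 0.0513), which did not pass the threshold. It did with DESeq2 (adjusted p = 9.48e-05), with limma-voom (0.0391), without iWAT 2, without iWAT 3 and without iWAT 1 and 3 together (2.62e-04). It did not with a replicate block (0.14), with RLE or upper quartile scaling (0.0606 and 0.0775) or without any other single library (up to 0.35).

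Timp3, a matrix-bound inhibitor that also blocks Adamts proteases, was at high levels in each depot. It measured 613, 542 and 590 CPM in iBAT, 514, 513 and 505 in scBAT, 414, 661 and 245 in iWAT. It measured 652, 640 and 691 CPM in eWAT. The brown depots lay inside the range of the white ones, and none of the 6 pairs of depots passed the threshold, whereas scBAT was called as lower than iWAT and than eWAT without iWAT 1 and 3 (adjusted p = 0.00789 and 0.00096). The difference between brown and white fat was 0.02 (SE 0.19, adjusted p = 0.949) and changed sign with upper quartile scaling (-0.06, adjusted p = 0.806). Without iWAT 1 and 3 it was -0.27 (adjusted p = 0.00198). In the annotation, 21.3% of Timp3 exon bases overlap exons of Syn3 on the other strand, and the strand setting of the counting is not given in the sources used here.

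Timp4, an inhibitor prominent in heart and fat, was high in eWAT. Its level was 119, 86.7 and 97.3 CPM in iBAT, 90.6, 85.7 and 115 in scBAT, 107, 186 and 44.8 in iWAT, and 376, 236 and 333 in eWAT. Each eWAT library exceeded every other library. Brown fat was lower than white by 0.93 (SE 0.28, adjusted p = 0.0129), while neither brown depot was called against iWAT (adjusted p = 0.744 for iBAT and 0.655 for scBAT). Both were called without iWAT 1 and 3, at -0.88 (adjusted p = 0.0229) and -0.94 (0.0178). Timp1, the inducible inhibitor, was low throughout, from 0.19 to 1.12 CPM in brown and from 1.25 to 2.51 CPM in white libraries, with no overlap between them. It was lower in brown fat by 1.78 (SE 0.34, adjusted p = 0.00073).

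**Figure D2:**
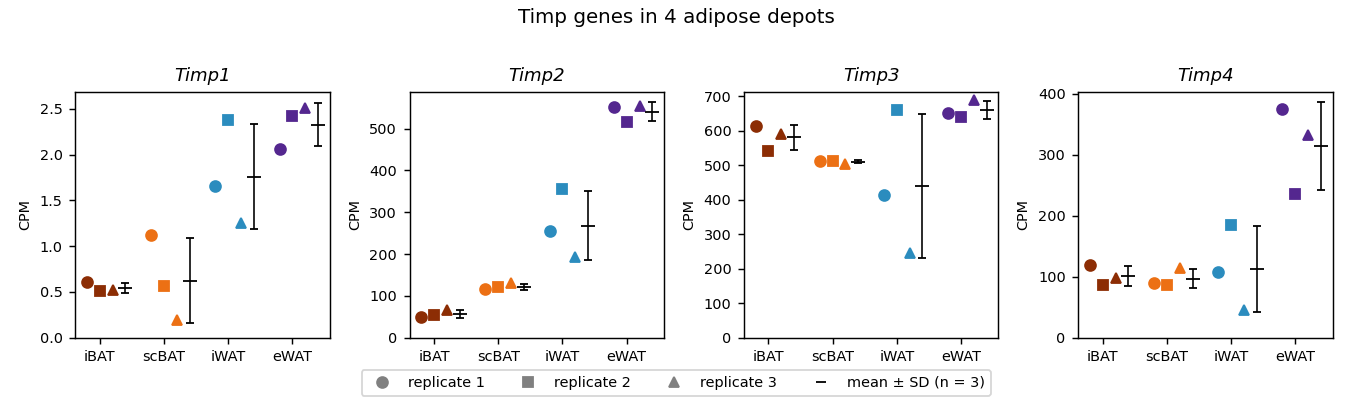
CPM of Timp1, Timp2, Timp3 and Timp4 in each library by depot, with the mean and SD of 3 libraries in black; symbols give the replicate number. Timp2 steps up from iBAT to eWAT with no overlap between depots, Timp3 is at 245 CPM or more in all 12 libraries, and Timp4 reaches 236 CPM or more in the eWAT libraries alone.

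The membrane-bound proteases split between brown and white fat. Mmp14, the membrane-type collagenase that also activates Mmp2 (GRCm38 chromosome 14, 54431612 to 54445364), was 9.78, 9.11 and 9.43 CPM in iBAT and 18.0, 14.2 and 19.3 in scBAT. It was 61.6, 66.8 and 56.1 CPM in iWAT and 46.2, 45.4 and 48.0 in eWAT. The 4 depots did not overlap, and all 6 pairs of depots passed the threshold for Mmp14. Brown fat was lower by 2.07 (SE 0.09, adjusted p = 3.82e-08), and iWAT was above eWAT by 0.40 (SE 0.12, adjusted p = 0.0314), a call lost in 7 of the 12 fits that leave out 1 library (up to 0.101). Mmp14 was the member called between the brown depots, 0.86 higher in scBAT (SE 0.12, adjusted p = 0.0188), where 0.329% of all genes were called. That call was lost without any iBAT library, without scBAT 1 or 3 and without eWAT 3 (adjusted p up to 0.16), with a replicate block (0.0691) and with limma-voom (0.0989).

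Mmp15, a related transmembrane enzyme, went the other way. It was 40.9, 39.1 and 39.1 CPM in iBAT, 40.8, 42.6 and 42.4 in scBAT, 22.0, 28.5 and 16.3 in iWAT, and 27.9, 27.4 and 26.3 in eWAT. All brown libraries lay above all white ones, with a difference of 0.73 (SE 0.11, adjusted p = 2.12e-04), and all 4 pairs of a brown and a white depot were called. Mmp17, which is anchored to the membrane by a lipid, had a difference of 0.41 (SE 0.15, adjusted p = 0.0334) at levels between 2.27 and 4.97 CPM. It lost its call in 8 of the 12 fits that leave out 1 library (adjusted p up to 0.0759), with upper quartile scaling (0.0713) and without iWAT 1 and 3 (0.0509). Mmp23, whose precursor spans the membrane, was 3.73 to 5.30 CPM in brown libraries, 12.2 to 13.9 in iWAT and 26.3 to 28.3 in eWAT. It was lower in brown fat by 2.04 (SE 0.10, adjusted p = 8.41e-08) and lower in iWAT than in eWAT by 1.05 (SE 0.14, adjusted p = 0.0017). Mmp16 was at or below 0.596 CPM in each library and passed the filter on low counts only through white libraries. It was called as lower in brown fat (-1.32, SE 0.43, adjusted p = 0.0173). The call for Mmp16 was lost with limma-voom (adjusted p = 0.0543) and without iWAT 1 and 3, where the difference was -0.30 (adjusted p = 0.7).

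The gelatinases, which cut denatured collagen and basement membrane collagen, were both lower in brown fat. Mmp2 measured 30.9, 32.9 and 38.5 CPM in iBAT, 54.1, 59.0 and 60.8 in scBAT, 97.3, 199 and 50.2 in iWAT, and 64.9, 65.6 and 63.8 in eWAT. iWAT spread over both sides of the scBAT and eWAT values. The difference between brown and white fat was -0.96 (SE 0.26, adjusted p = 0.00673). For Mmp2, scBAT did not differ from eWAT beyond the spread (log2 difference -0.16, adjusted p = 0.738). Mmp9, a gelatinase also made by white blood cells, ran from 2.68 to 5.65 CPM in brown and from 11.1 to 22.5 CPM in white libraries (log2 difference -1.97, SE 0.18, adjusted p = 3.59e-06). The 11 macrophage markers in the table were all lower in brown fat too. Their summed level was 234 to 286 CPM in iBAT, 396 to 436 in scBAT, 1365 to 1564 in iWAT and 1397 to 1526 in eWAT. The part of macrophages in these results was not tested.

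**Figure D3:**
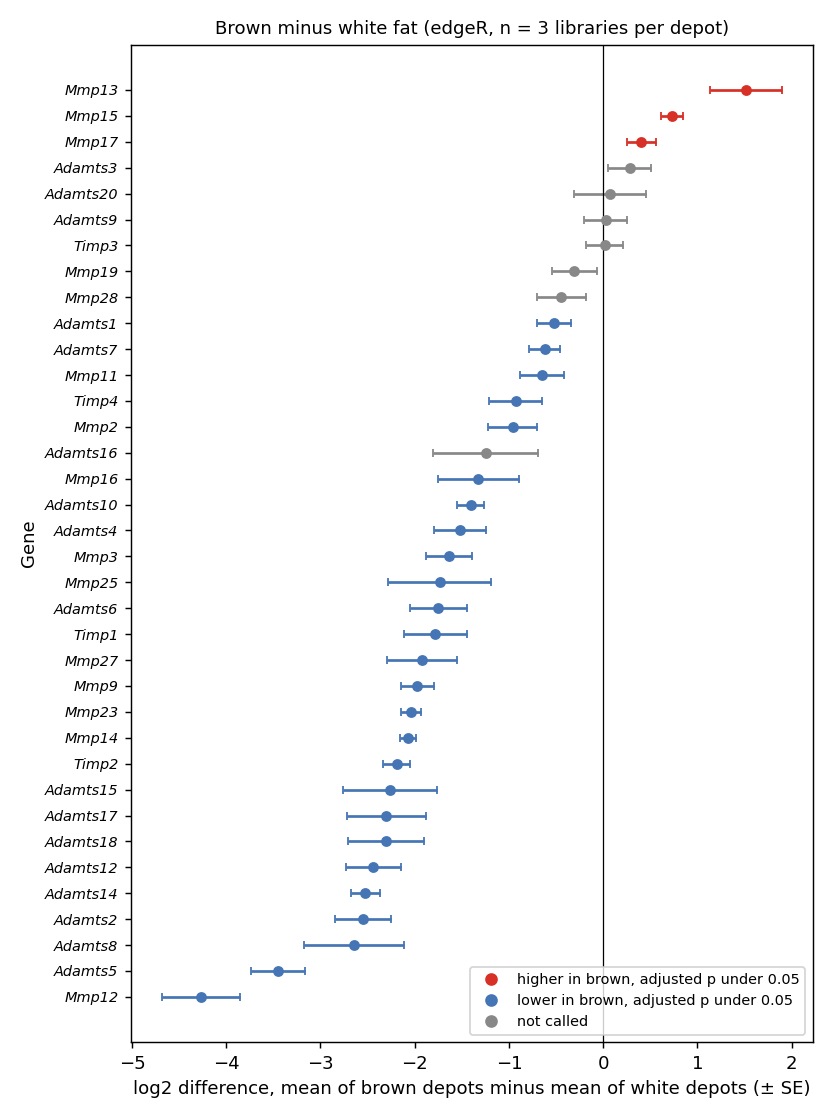
Log2 difference of 36 tested members between the mean of the brown and the mean of the white depots, with its standard error; red and blue mark members past the threshold as higher and lower in brown fat, and grey those that were not. Mmp13, Mmp15 and Mmp17 lie to the right of 0, and Mmp12 (-4.26) and Adamts5 (-3.45) lie farthest to the left. Adamts19, which had no count in either brown depot, is not drawn.

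Of the 23 Mmp genes, 10 lie side by side on chromosome 9 (GRCm38, 7272514 to 7699585), and their levels differed widely between neighbours and between depots. In chromosome order they are Mmp13, Mmp12, Mmp1b, Mmp3, Mmp1a, Mmp10, Mmp8, Mmp27, Mmp20 and Mmp7. Promoters of this cluster are known for a site of the AP-1 transcription factors, which relay growth factor and stress signals. The motif TGANTCA, which reads the same on both strands, was searched in the 250 bases before each annotated start in the RefSeq promoter table (GRCm38.p6). It was found for 8 of the 10 genes of the cluster, and in 7.82% of all 27025 genes in that table. Outside the cluster it was found for 0 of the 8 Mmp, 0 of the 10 Adamts and 0 of the 4 Timp genes present there. That table held 32 of the 46 members. Members missing from it, among them Mmp2, Mmp9 and Adamts5, were not searched. A match is a description of the letters and not a site shown to be bound.

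The stretches around the motif are printed for 6 genes of the cluster to set genes with reads beside neighbours with few or none. Each runs 5′ to 3′ on the plus strand, with the motif in capitals.
Mmp13 (chr9:7272441-7272510): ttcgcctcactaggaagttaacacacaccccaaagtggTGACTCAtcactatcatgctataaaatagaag
Mmp12 (chr9:7347292-7347361): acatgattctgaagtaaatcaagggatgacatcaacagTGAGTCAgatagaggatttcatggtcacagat
Mmp3 (chr9:7445738-7445807): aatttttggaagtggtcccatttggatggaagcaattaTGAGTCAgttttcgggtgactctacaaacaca
Mmp1a (chr9:7464030-7464099): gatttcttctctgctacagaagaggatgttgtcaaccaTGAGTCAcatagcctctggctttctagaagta
Mmp10 (chr9:7502241-7502310): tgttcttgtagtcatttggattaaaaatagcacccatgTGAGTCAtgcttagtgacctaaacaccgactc
Mmp7 (chr9:7691989-7692058): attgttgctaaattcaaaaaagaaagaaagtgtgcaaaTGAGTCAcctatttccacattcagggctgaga
The motif began 35 bases before the start of Mmp13, 46 before that of Mmp3, 73 before that of Mmp1a and 63 before those of Mmp10 and Mmp7. For Mmp12 it lay 44 bases before the second of its annotated starts. Sequences with the motif thus stood before genes with very different read counts in these tissues.

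Mmp3, stromelysin-1, which cuts many matrix proteins and activates other metalloproteinases, was high in iWAT. Its level was 1.77, 2.10 and 1.87 CPM in iBAT, 3.79, 2.91 and 4.88 in scBAT, 32.7, 53.7 and 19.9 in iWAT. It was 1.67, 2.34 and 2.07 CPM in eWAT. The lowest iWAT library exceeded the highest library of any other depot. The difference between iWAT and eWAT was 4.12 (SE 0.36, adjusted p = 1.92e-04) and remained past the threshold without each library in turn (adjusted p up to 0.0029) and without iWAT 1 and 3 together (4.75, adjusted p = 2.69e-06). scBAT was above eWAT by 0.93 (adjusted p = 0.04), a call lost in 9 of the 12 fits that leave out 1 library (up to 0.151), with limma-voom (0.25) and with upper quartile scaling (0.0675). iBAT did not pass against eWAT (-0.08, adjusted p = 0.866). The contrast of brown and white fat (-1.64, SE 0.24, adjusted p = 1.39e-04) therefore averages a white depot with much Mmp3 and one with little.

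Mmp12, the elastase of macrophages, had the largest fall in brown fat among the members that averaged 5 CPM or more in some depot. It stood at 0.489, 0.319 and 0.258 CPM in iBAT, 0.435, 0.112 and 0.254 in scBAT, 5.77, 18.2 and 5.89 in iWAT, and 3.37, 3.09 and 4.39 in eWAT. White libraries lay above all brown ones, with a log2 difference of -4.26 (SE 0.42, adjusted p = 6.64e-06). Mmp12 passed the filter on low counts only through white libraries, so this separation and its p-value are a description. Mmp12 in iWAT was above eWAT by 1.45 (SE 0.47, adjusted p = 0.0419), a call lost in 9 of the 12 fits that leave out 1 library (adjusted p up to 0.12) and with upper quartile scaling (0.0508), while the difference ran from 0.69 to 1.73. Without iWAT 1 and 3 it was 2.35 (adjusted p = 0.0042).

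Other genes of the cluster were sparse. Mmp13, an interstitial collagenase, was 0.794, 0.892 and 0.775 CPM in iBAT, 1.62, 0.728 and 1.14 in scBAT, 0.0703, 0.528 and 0.428 in iWAT, and 0.390, 0.278 and 0.345 in eWAT. It was higher in brown fat by 1.51 (SE 0.38, adjusted p = 0.00456), with 2 to 26 counts per library behind these values. Mmp13 passed the filter on low counts only through brown libraries, so this difference and its p-value are a description. Mmp27 ran from 0.244 to 1.46 CPM in brown and from 1.15 to 5.24 CPM in white libraries, and the groups overlapped. Mmp8, the collagenase of neutrophils, had 108, 3 and 70 counts in iWAT 1 to 3 and at most 5 in any other library. Mmp7, matrilysin, had 11, 1 and 24 counts in iWAT 1 to 3, 29 in eWAT 3 and at most 2 in each of the others.

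**Figure D4:**
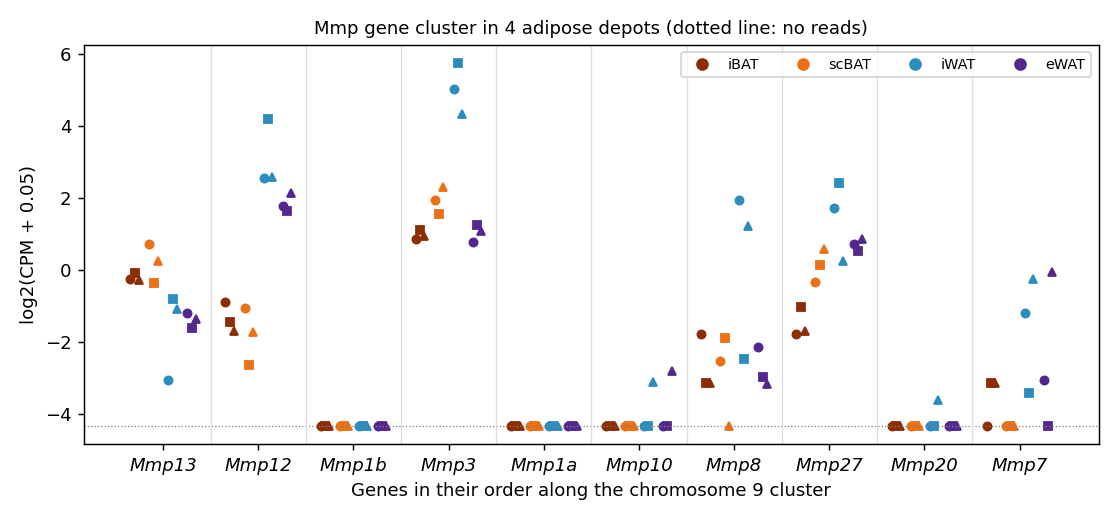
Level of the 10 Mmp genes of the chromosome 9 cluster, in chromosome order, as log2(CPM + 0.05) for each library, with colour for the depot and circle, square and triangle for replicates 1, 2 and 3. Mmp3 is high in iWAT, Mmp12 in both white depots and Mmp13 in the brown ones, while Mmp1b and Mmp1a lie on the dotted line of no reads in all libraries.

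Mmp11, stromelysin-3, which furin activates inside the cell, ran from 4.82 to 10.6 CPM in brown and from 7.08 to 20.1 CPM in white libraries (log2 difference -0.65, SE 0.24, adjusted p = 0.0305), a call lost in 5 of the 12 fits that leave out 1 library (up to 0.0886) and without iWAT 1 and 3 (0.0539). Mmp19 and Mmp28 were among the 6 most abundant Mmp genes per kilobase, at 13.4 and 8.10 RPKM over the depots. Mmp19 measured 36.9, 34.9 and 44.2 CPM in iBAT, 39.7, 45.5 and 48.2 in scBAT, 33.6, 64.1 and 18.4 in iWAT, and 69.7, 70.7 and 63.5 in eWAT. Mmp28, epilysin, measured 22.7, 18.0 and 24.8 CPM in iBAT, 28.1, 32.4 and 27.1 in scBAT, 21.7, 37.9 and 9.45 in iWAT, and 57.5, 47.9 and 49.3 in eWAT. For both, the iWAT values spanned the brown ones. Neither was called between brown and white fat (adjusted p = 0.272 for Mmp19 and 0.149 for Mmp28), but both were called as lower in brown without iWAT 1 and 3 (-0.66 and -0.80). Exons of Mmp19 overlap other genes on the opposite strand over 28.3% of their bases, and those of Mmp28 over 12.0%.

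The Adamts proteoglycanases included the member with the second largest fall among the more abundant ones. Adamts5, an aggrecanase (chromosome 16, 85856173 to 85901828), stood at 19.3, 17.2 and 19.6 CPM in iBAT, 29.2, 25.2 and 30.0 in scBAT, 181, 258 and 61.8 in iWAT. It stood at 391, 340 and 402 CPM in eWAT. The depots did not overlap. Brown fat was lower by 3.45 (SE 0.29, adjusted p = 2.16e-06). Its 37.1% share of the summed Adamts level per kilobase in eWAT was the highest of the 19 genes there, whereas Adamts1 led in iBAT with 32.0%. The summed Adamts level was 19.6 to 22.2 RPKM in brown libraries, 52.7, 71.8 and 34.5 in iWAT, and 93.5, 90.1 and 99.3 in eWAT.

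Of the 7 proteoglycanases, 5 were lower in brown fat, as were 38.1% of all tested genes, and 2 were not called. Adamts1, next to Adamts5 on chromosome 16, measured 31.7, 33.8 and 39.4 CPM in iBAT, 28.6, 32.6 and 29.5 in scBAT, 35.2, 40.2 and 17.3 in iWAT, and 80.0, 68.8 and 62.9 in eWAT. It was high in eWAT alone. Its difference between brown and white fat (-0.52, SE 0.18, adjusted p = 0.022) lost the call in 6 of 12 fits that leave out 1 library (up to 0.0587). Adamts15 measured 4.09, 2.36 and 6.91 CPM in iBAT, 6.21, 7.96 and 5.77 in scBAT, 13.0, 46.7 and 5.46 in iWAT, and 19.5, 25.3 and 49.9 in eWAT (log2 difference -2.26, SE 0.50, adjusted p = 0.00206). iWAT 3 was within the brown range. Adamts9 had 47.2, 42.5 and 58.0 CPM in iBAT, 38.3, 47.3 and 37.5 in scBAT, 28.9, 56.6 and 18.1 in iWAT, and 50.6, 58.0 and 60.1 in eWAT. Brown fat differed from white by 0.03 (SE 0.23, adjusted p = 0.916), which changed sign with upper quartile scaling (-0.05, adjusted p = 0.872), and none of its 6 pairs of depots was called. The difference for Adamts9 without iWAT 1 and 3 was -0.32 (adjusted p = 0.0258), and scBAT was then called as lower than eWAT (-0.43, adjusted p = 0.0131). Adamts4 and Adamts8 were at most 2.38 CPM in each library and were called as lower in brown fat. Adamts8 passed the filter on low counts only through white libraries.

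The procollagen proteases remove the N-terminal propeptide of fibrillar procollagens, a step before collagen fibrils form. Adamts2 stood at 13.3, 14.5 and 16.5 CPM in iBAT, 18.1, 19.9 and 20.2 in scBAT, 56.8, 118 and 25.7 in iWAT, and 150, 140 and 154 in eWAT, with a log2 difference of -2.55 (SE 0.30, adjusted p = 2.38e-05). Adamts14 stood at 1.47, 1.02 and 1.55 CPM in iBAT, 1.62, 1.23 and 1.14 in scBAT, 7.59, 7.39 and 7.74 in iWAT, and 7.10, 8.25 and 8.18 in eWAT, with a difference of -2.52 (SE 0.15, adjusted p = 2.50e-07). Adamts2 was uneven across iWAT, while the 6 white values of Adamts14 lay within 7.10 to 8.25 CPM. Adamts3, which also acts on a precursor of the lymphatic growth factor Vegfc, ran from 0.66 to 3.62 CPM over all libraries and was not called between brown and white fat (0.28, adjusted p = 0.296). It was called as higher in brown fat without iWAT 1 and 3 (0.78, adjusted p = 0.00685).

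Among the other Adamts genes, 7 of 8 tested were lower in brown fat, as were 38.1% of all tested genes. The 7 include Adamts17, Adamts18 and Adamts19, which passed the filter on low counts only through white libraries, so this count is a description. Adamts12, which degrades cartilage oligomeric matrix protein, stood at 9.66, 10.6 and 11.8 CPM in iBAT, 14.8, 15.5 and 15.5 in scBAT, 44.1, 92.3 and 23.5 in iWAT, and 66.2, 116 and 88.1 in eWAT (log2 difference -2.44, SE 0.29, adjusted p = 2.98e-05). Adamts10, a binder of fibrillin, stood at 32.4, 32.6 and 27.4 CPM in iBAT, 28.5, 23.2 and 25.8 in scBAT, 74.3, 52.5 and 93.8 in iWAT, and 76.5, 62.4 and 88.5 in eWAT (-1.40, SE 0.14, adjusted p = 9.77e-06). Both were lower in each brown library than in each white one. Adamts16 was 0.428, 0.637 and 0.775 CPM in iBAT, 1.12, 1.57 and 1.59 in scBAT, 0.563, 2.29 and 0.0658 in iWAT, and 5.18, 5.59 and 4.86 in eWAT. It was not called between brown and white fat (-1.25, adjusted p = 0.0651), but it was with DESeq2 (adjusted p = 0.0401), without iWAT 3 and without iWAT 1 and 3 together (-1.87, adjusted p = 1.10e-05). Adamts19 had 0 counts in both brown depots, 3 in iWAT and 112 in eWAT. In eWAT it was at least 20.8-fold higher than in iBAT and at least 21.8-fold higher than in scBAT, taking a floor of 3 counts over the depot. Against iWAT the ratio for Adamts19 was 35.7, with a 95% exact counting interval of 11.9 to 176, which covers counting error only.

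Between the white depots, 17 of 37 tested members were called, 6 as higher in iWAT and 11 as lower. Of all tested genes 28.7% were called, 17.7% as higher and 11% as lower. Those higher in iWAT were Mmp3, Mmp12, Mmp14, Mmp25, Adamts6 and Adamts20. Those lower were Mmp23, Mmp28, Timp2, Timp4, Adamts1, Adamts3, Adamts5, Adamts7, Adamts16, Adamts18 and Adamts19. The differences for the lower ones included -1.01 for Timp2 (SE 0.20, adjusted p = 0.0078), -1.48 for Timp4 (SE 0.40, adjusted p = 0.0247), -1.19 for Adamts1 (SE 0.25, adjusted p = 0.0106), -1.18 for Adamts5 (SE 0.37, adjusted p = 0.0393) and -2.45 for Adamts16 (SE 0.76, adjusted p = 0.0374). The number of calls depended on the libraries: it was 28 without iWAT 2, where 67.2% of all genes were called, and 8 without iWAT 1 (8.95% of all genes). It was 6, 9 and 8 without eWAT 1, 2 and 3 (7.94%, 11.2% and 9.73%). Without iWAT 1 and 3 together it was 11, where 5.8% of all genes were called, and 8 of these were among the 17. That fit ended the calls of Mmp25, Mmp28, Timp4, Adamts6, Adamts7, Adamts16, Adamts18, Adamts19 and Adamts20 and added Mmp2, Mmp9 and Mmp27. In it the differences were -0.58 for Timp2, -0.79 for Adamts1 and -0.53 for Adamts5, which were still called, and -0.74 for Timp4 (adjusted p = 0.205) and -1.16 for Adamts16 (0.0837), which were not. The members that passed without each library in turn were Mmp3, Mmp23, Mmp25, Timp2, Adamts1 and Adamts19. Adamts18 and Adamts19 passed the filter on low counts only through eWAT libraries, so their calls between the white depots are a description. Mesothelium markers moved with this contrast: all 10 were lower in iWAT, with a summed level of 10.1 to 15.4 CPM in iWAT and 483 to 653 CPM in eWAT. Their part in the result was not tested.

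Across the iWAT libraries the members fell into opposite orders. For 26 of 37 tested members (70.3%) iWAT 2 was the highest of the 3 libraries, and for 10 it was the lowest, while over all tested genes these shares were 46.6% and 46.4%. Mmp25, a membrane-anchored protease of white blood cells, stood at 7.31, 1.01 and 11.8 CPM in iWAT 1 to 3, 0.672, 0.510 and 0.711 in iBAT, 0.186, 0.448 and 0.761 in scBAT, and 0.532, 0.555 and 0.376 in eWAT. Its difference between iWAT and eWAT was 3.78 (SE 0.75, adjusted p = 0.00878), and 1.07 without iWAT 1 and 3 (adjusted p = 0.403). Its difference between brown and white fat was -1.73 (SE 0.54, adjusted p = 0.0152), and -0.36 without those libraries (adjusted p = 0.439).

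Adamts6 stood at 17.5, 6.82 and 24.1 CPM in iWAT 1 to 3, 2.69, 2.74 and 1.55 in iBAT, 2.05, 2.18 and 3.24 in scBAT, and 3.12, 4.48 and 4.58 in eWAT. Each iWAT library exceeded all the others, iWAT 2 by the least. Its difference between iWAT and eWAT was 1.99 (SE 0.42, adjusted p = 0.0104), and 0.77 without iWAT 1 and 3 (adjusted p = 0.278). Adamts20 stood at 4.08, 1.54 and 4.97 CPM in iWAT and from 0.319 to 2.20 CPM in all other libraries, and its difference from eWAT was 2.59 (adjusted p = 0.0129), or 1.42 without iWAT 1 and 3 (adjusted p = 0.281). The lymphocyte markers, and 9 neutrophil markers with summed levels of 130, 16.2 and 116 CPM in iWAT 1 to 3 against at most 9.91 CPM elsewhere, were likewise lower in iWAT 2 than in iWAT 1 and 3. So was Adamts13, the protease of von Willebrand factor, with 64, 3 and 73 counts in iWAT and at most 6 in each other library. The part of these cell types was not tested.

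**Figure D5:**
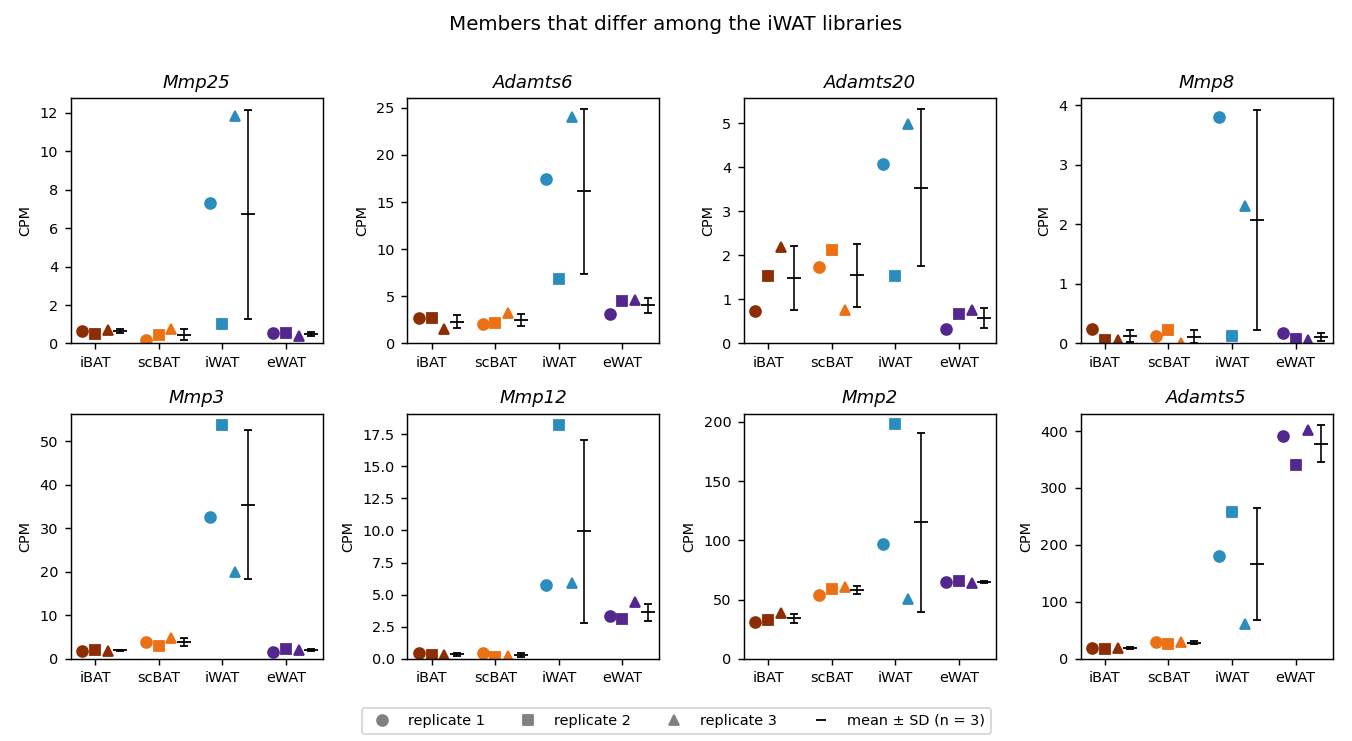
CPM of 8 members by depot and library, with the mean and SD of 3 libraries in black; circles, squares and triangles are replicates 1, 2 and 3. In the upper row Mmp25, Adamts6, Adamts20 and Mmp8 are high in iWAT 1 and 3 and lower in iWAT 2, and in the lower row Mmp3, Mmp12, Mmp2 and Adamts5 are highest among the iWAT libraries in iWAT 2.

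Counting a member as selective when it was higher in a depot than in each of the other 3, 8 members were selective for eWAT, where 7.11% of all tested genes were. They were Timp2, Timp4, Mmp23, Adamts1, Adamts5, Adamts7, Adamts18 and Adamts19. For Adamts18 and Adamts19, which passed the filter on low counts only through eWAT libraries, this is a description. For iWAT 5 were selective, Mmp3, Mmp12, Mmp14, Mmp25 and Adamts6, where 11.5% of all genes were. No member was selective for iBAT (0.0201% of all genes) or scBAT (0.0604%). In the fit without iWAT 1 and 3, the members selective for eWAT were Timp2, Mmp23, Adamts1 and Adamts5 (2.43% of all genes) and those for iWAT were Mmp2, Mmp3, Mmp9, Mmp12, Mmp14 and Mmp27 (1.27%). That fit rests on iWAT 2 as the lone iWAT library, which was the highest iWAT library for 26 of the 37 members. For Mmp2, the left-out iWAT 3 lay below every scBAT and every eWAT library. In all 12 libraries, eWAT had the highest mean for 22 of the 37 members and iBAT the lowest for 18. The matching shares over all tested genes were not computed, so these counts describe the members alone. Such ranks also order depots that were not called apart, and for Timp3, Mmp19 and Adamts9 no pair of depots was called.

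Between the brown depots Mmp14 was the sole call by edgeR, as higher in scBAT where 0.235% of all genes were, and DESeq2 called 2 members (1.41% of all genes). At an unadjusted p under 0.05, Mmp14, Timp2, Mmp27, Mmp9 and Mmp3 were higher in scBAT, and Mmp2 had an unadjusted p of 0.0613. For these 6 genes every scBAT library exceeded every iBAT library, as also for Adamts2, Adamts3, Adamts5, Adamts12, Adamts16 and Mmp28. Timp3 and Adamts17 were lower in every scBAT library than in every iBAT library. The shares of all genes with such a separation or such an unadjusted p were not counted. These lists therefore describe the members alone and show no excess over other genes. Mmp14 alone among the listed genes passed the adjusted threshold in the main fit. Without iWAT 1 and 3 in the fit, 6 members were called as higher in scBAT, namely Mmp14, Timp2, Mmp27, Mmp3, Mmp2 and Adamts5, where 1.87% of all genes were called. Macrophage markers had 4 of 11 higher and none lower in scBAT. Skeletal muscle markers ran from 522 to 2149 CPM summed in iBAT and from 1963 to 6431 in scBAT, and salivary gland markers from 376 to 621 and from 1268 to 6766. Their part in these differences was not tested.

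Genes that act with these proteases were also read from the fit. Over all tested genes 38.1% were called as lower and 31.3% as higher in brown fat, with a median log2 difference of -0.11. Of 20 listed substrates and matrix proteins, 19 were tested and all 19 were lower in brown fat, with a median of -1.85. Bgn, the proteoglycan biglycan, averaged 77.5 ± 6.71 CPM (SD, n = 3) in iBAT and 82.6 ± 1.87 CPM in scBAT. Its white fat levels were 255 ± 38.5 CPM in iWAT and 327 ± 34.7 CPM in eWAT (adjusted p = 8.17e-08). Thbs1, thrombospondin-1, and Dcn, decorin, were lower by 2.99 (adjusted p = 2.10e-07) and 1.52 (adjusted p = 5.86e-06). Of 14 tested regulators, 10 were lower and 3 higher, with a median of -1.40. Reck, a membrane-bound inhibitor of metalloproteinases, averaged 5.59 ± 0.829 CPM in iBAT and 6.42 ± 0.533 CPM in scBAT. In white fat Reck averaged 14.8 ± 3.34 CPM in iWAT and 19.6 ± 0.623 CPM in eWAT (log2 difference -1.51, adjusted p = 2.28e-06). Furin, the convertase that activates Mmp14 and other precursors, went the other way, at 192 ± 9.09 and 185 ± 8.03 CPM in brown against 84.0 ± 15.9 and 102 ± 4.32 CPM in white fat (1.02, adjusted p = 2.52e-06). Spock2, a matrix proteoglycan, was 62.9 ± 7.42 CPM in eWAT and at most 6.81 on average in the other depots. Of 6 Adamts-like genes, which lack the protease domain, 5 were lower in brown fat and Adamtsl3 was higher (2.08, adjusted p = 1.12e-05), whereas Adamtsl2 (-3.66) and Adamtsl4 (-2.21) were the lowest.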

How the data were processed

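The deposited table holds raw counts per gene symbol, which the authors did not normalize; the submitters' processing notes name HTSeq 0.6.1p1, STAR 2.4.2a, bcl2fastq 1.8.3, edgeR, Picard 1.119 and the build mm10 without roles, and the annotation and strand setting are not given in the sources used here. Differences were tested in R 4.3.3 with edgeR 4.0.16 (TMM scaling, filterByExpr on depot, robust quasi-likelihood F test, 1 mean per depot, 8 residual degrees of freedom). All adjusted p-values come from this fit, over all tested genes of a contrast, unless another tool is named (DESeq2 1.42.0, limma-voom 3.58.1). The SE is the log2 difference divided by the root of F. CPM values use TMM-scaled library sizes, and RPKM divides them by the union of exons in GENCODE M21 (GRCm38). Members and lists were chosen with earlier results of these data known. The naming rule took all Timp genes, per main contrast the 8 called members with the largest difference and at least 5 CPM in a depot, and the 6 Mmp and 6 Adamts highest per kilobase; other members with values, such as Mmp8, Mmp13, Mmp23 and Adamts20, were chosen after their values were seen. On simulated data with changed genes of at least 50 counts, of 100 genes changed 4-fold and 100 changed 2-fold, 98 and 74 were recovered for brown minus white (14697 genes), 83 and 43 for scBAT minus iBAT (14706 genes) and 87 and 48 for iWAT minus eWAT (14719 genes). The simulated libraries had a single spread per gene and, apart from the changed genes, the same mean in all depots. They lacked the unequal spread of the depots, so recovery in the real data may be different. The replicates of each depot differed by more than sampling noise.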

Additional observations from a re-analysis of the deposited data

How the results depend on the processing

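Called members numbered 30 between brown and white fat (69.4% of all genes). When 1 library was left out in turn they numbered 28 to 34 (63.8% to 77.2%). Between the brown depots the count was 1 (0.329% of all genes), with 0 to 2 on leaving out 1 library, 2 with DESeq2 (1.41%), 4 in a fit of the 6 brown libraries alone (1.14%) and 6 without iWAT 1 and 3 (1.87%). Between the white depots it was 17 (28.7%), with 6 to 28 on leaving out 1 library, 3 in a fit of the white libraries alone (Mmp3, Mmp23 and Adamts19; 1.43%) and 11 without iWAT 1 and 3 (5.8%). The call of Adamts19 in the white libraries alone is a description, since it had 3 counts in iWAT. On leaving out 1 library, iBAT and iWAT gave 22 to 30 (53% to 73.7% of all genes). iBAT and eWAT gave 21 to 31 (43.8% to 66.1%), and scBAT and iWAT 20 to 29 (51.6% to 73.5%). For scBAT and eWAT the count was 21 to 31 (40.9% to 64.9%). The cause of these shifts was not tested. The labels do not say whether same-numbered libraries of different depots share an animal. The correlation of their deviations ran from -0.18 to 0.23 and exceeded 0.1 in 5 of 18 cases. For libraries with different numbers it ran from -0.27 to 0.34, so these correlations cannot decide whether the libraries pair. With the replicate number as a block the counts were 30 between brown and white (67.9%), 0 between the brown (0.121%) and 12 between the white depots (21.9%). Timp3 and Adamts9 reversed between brown and white fat without iWAT 1 and 3, to -0.27 and -0.32. Of 1296 values of the 22 named members under the alternatives, 1175 stayed on the same side of the threshold without reversing a call. A change of sign was counted as unchanged where neither fit called the member. Neither RLE nor upper quartile scaling turned a called member in any contrast; upper quartile scaling ended 3 calls, given beside the results. Mmp1a, Mmp1b, Mmp10, Mmp20, Mmp21 and Mmp24 had 0 to 28 counts in all, so their differences were not detectable at this depth. Whether depth or absent expression lies behind these counts was not tested.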
